A study of Rattus norvegicus with 30 samples.

Results

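The axon guidance families followed here are the semaphorins with their plexin and neuropilin receptors, the ephrins with the Eph receptors, the Slits with the Robos, and the netrins and netrin-Gs with Dcc and the Unc5 receptors. Members were chosen by gene name alone, as the names that the array gives to these families, which took 66 of the 35287 gene names on the array and 96 of its 41012 probes. The name rule also took Unc50, which shares letters with the Unc5 receptors but is no guidance receptor, and it is counted among the 66. RNA came from adult male Sprague-Dawley rats whose left sciatic nerve had been resected at the mid-thigh, and it was collected from the proximal sciatic nerve (SN) and from the L4-6 dorsal root ganglia (DRG) at 0, 1, 4, 7 and 14 d. Each tissue had 3 arrays per time point and 15 in all, and the 0 d arrays were the controls. The labels give no transgene and no other treatment. The labels describe 30 rats in 5 groups of 6, and which rats an array holds is not stated, so that p-values measure only the spread between these samples.

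Guidance proteins steer a growth cone by attraction or repulsion. Secreted class 3 semaphorins bind neuropilins, which signal through A-type plexins, whereas most membrane-bound semaphorins bind plexins directly. Ephrins are held on the cell surface and bind Eph receptor tyrosine kinases on the neighbouring cell, Slits bind Robos, and netrins bind Dcc and Unc5 receptors. In injured peripheral nerve such pairs act between Schwann cells, fibroblasts, macrophages and axons, and the contact between ephrin-B on fibroblasts and Ephb2 on Schwann cells is known for sorting Schwann cells into cords. The ganglia hold the cell bodies of the sensory neurons whose axons run in the nerve.

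The normalized signal used below is the log2 processed intensity of a probe minus the 75th percentile of its array, so that a value of 0 equals that percentile. Levels of different probes were not compared, since probes differ in how strongly they bind. Between 26941 and 35573 probes were well above background per array, and Pearson's r between arrays of a group ran from 0.985 to 0.997. All 8 sensory neuron markers were lower in SN than in DRG at 0 d (median log2 difference −8.45), and 4 of 5 myelinating Schwann cell markers were higher. The 6 arrays of 0 d lay on 2 slides that held no other arrays and were scanned on a separate day, so that within a tissue the effects of injury and of slide against 0 d cannot be told apart. DRG 0 d replicates 2 and 3 lay on a slide of their own, with local backgrounds of 81 and 89 beside 36 to 51.5 on the other 28 arrays. A gene was tested in a tissue if the scanner software had marked its probe well above background throughout some time point of that tissue, which held for 60 of the 66 members in SN, 62 in DRG and 58 in both. Dcc, the attractive netrin receptor, and Efnb2, an EphB ligand, were not well above background on any of the 30 arrays. Ntn1 and Sema3a were tested in SN but not in DRG, and Efna5, Epha6, Sema3e and Unc5d in DRG but not in SN.

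Promoters from RefSeq (assembly GRCr8) were matched by symbol to 51 of the 66 members. The 250 bases before the start of each gene were searched on both strands for the letters TGANTCA (AP-1), ACAAAG (SOX) and GCGTGGGCG (EGR), none of which contains another. TGANTCA was found in 1 of the 51 member promoters and in 6.34% of the 33469 promoters of the table. ACAAAG was found in 6 of the 51 and in 16.3% of all, and GCGTGGGCG in 3 of the 51, in front of Efna3, Sema6d and Plxna2, and in 0.478% of all. A match is a description of the letters and not a binding site. The 4 promoters printed here belong to genes whose levels changed most or that hold a match: Robo3 (chr8:45340223-45340472, minus strand), Plxnc1 (chr7:31430606-31430855, minus strand), Plxnb2 (chr7:122137949-122138198, minus strand) and Epha10 (chr5:142424046-142424295, plus strand). Capitals mark a match, and all 4 are written 5′ to 3′ on the strand of the gene.
Robo3: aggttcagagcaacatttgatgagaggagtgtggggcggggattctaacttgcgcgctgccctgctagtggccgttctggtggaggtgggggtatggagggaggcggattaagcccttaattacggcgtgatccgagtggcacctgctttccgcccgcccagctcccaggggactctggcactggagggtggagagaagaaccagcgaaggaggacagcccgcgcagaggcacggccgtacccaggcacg
Plxnc1: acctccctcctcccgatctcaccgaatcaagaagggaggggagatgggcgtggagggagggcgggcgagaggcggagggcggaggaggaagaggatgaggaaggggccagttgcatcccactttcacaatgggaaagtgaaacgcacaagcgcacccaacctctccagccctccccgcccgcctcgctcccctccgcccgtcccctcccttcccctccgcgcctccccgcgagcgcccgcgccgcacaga
Plxnb2: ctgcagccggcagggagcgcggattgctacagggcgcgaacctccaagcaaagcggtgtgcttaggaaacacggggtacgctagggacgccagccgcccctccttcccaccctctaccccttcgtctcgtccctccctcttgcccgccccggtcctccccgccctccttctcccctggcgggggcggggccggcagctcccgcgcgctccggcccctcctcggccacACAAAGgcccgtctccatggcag
Epha10: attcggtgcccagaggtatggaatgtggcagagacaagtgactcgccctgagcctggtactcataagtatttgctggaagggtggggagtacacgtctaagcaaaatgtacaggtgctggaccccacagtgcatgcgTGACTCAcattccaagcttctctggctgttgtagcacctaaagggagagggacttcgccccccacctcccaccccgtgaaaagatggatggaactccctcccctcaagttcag
The capitals in Plxnb2 begin 23 bases before the start and those in Epha10 113 bases before it, while none of the letters searched were found in the windows of Robo3 and Plxnc1.

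At 0 d the families were spread over the 2 tissues as follows. Of the 58 members tested in both tissues, 17 were higher in SN and 14 were lower, where a call needed more than a 2-fold difference and, in limma, a p under 0.05 after Benjamini-Hochberg adjustment. Among all gene names 35.6% were called in this comparison, 20.3% higher and 15.4% lower in SN. Of the 28 receptors tested 8 were lower in nerve, and of the 29 ligands 6. Robo2, a Slit receptor, had normalized signals of −3.14, −2.99 and −2.95 on the SN arrays and 2.55, 2.41 and 2.76 on the DRG arrays, a log2 difference of −5.60 (SE 0.15, adjusted p = 1.51e-19). The 2 groups did not overlap. Epha5, an EphA receptor, was lower in SN with a log2 difference of −3.76, and so were the plexins Plxnc1 and Plxna2 (−3.12 and −2.86). Ntng1, the membrane-anchored netrin-G1, was not well above background on any SN array of 0 d and was at least 8.15-fold lower than in DRG, and Plxna4a, the file's name for Plxna4, was at least 3.52-fold lower.

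Of the 17 genes that were higher in nerve 11 were ligands and 6 receptors, from 29 ligands and 28 receptors tested. Of the 5 secreted class 3 semaphorins tested in both tissues, 3 were higher in SN (Sema3d by 2.30, Sema3b by 1.55 and Sema3c by 1.47) and none was lower, and Slit3 and Slit2 were higher by 2.08 and 1.58 while Slit1 was lower (−1.79). The membrane-bound Sema5a and Sema4g were higher by 2.25 and 2.14. Robo3, a divergent Robo known from commissural axons, was higher in SN: its signals were 0.40, 1.13 and 0.91 in SN and −1.99, −2.08 and −2.84 in DRG, a difference of 3.12 (SE 0.20). The Robos were divided, with Robo3 and Robo4, the Robo of endothelial cells, higher in SN and Robo1 and Robo2 lower. In these bulk samples fewer cells of a type and less RNA per cell cannot be told apart. All 6 fibroblast markers, all 6 endothelial markers and 5 of 6 macrophage markers were also higher in SN at 0 d, with median differences of 2.24, 1.66 and 1.82. So were all 4 adipocyte markers tested (5.32) and 2 of 6 skeletal muscle markers (2.15), and their part in these differences was not tested.

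**Figure D1:**
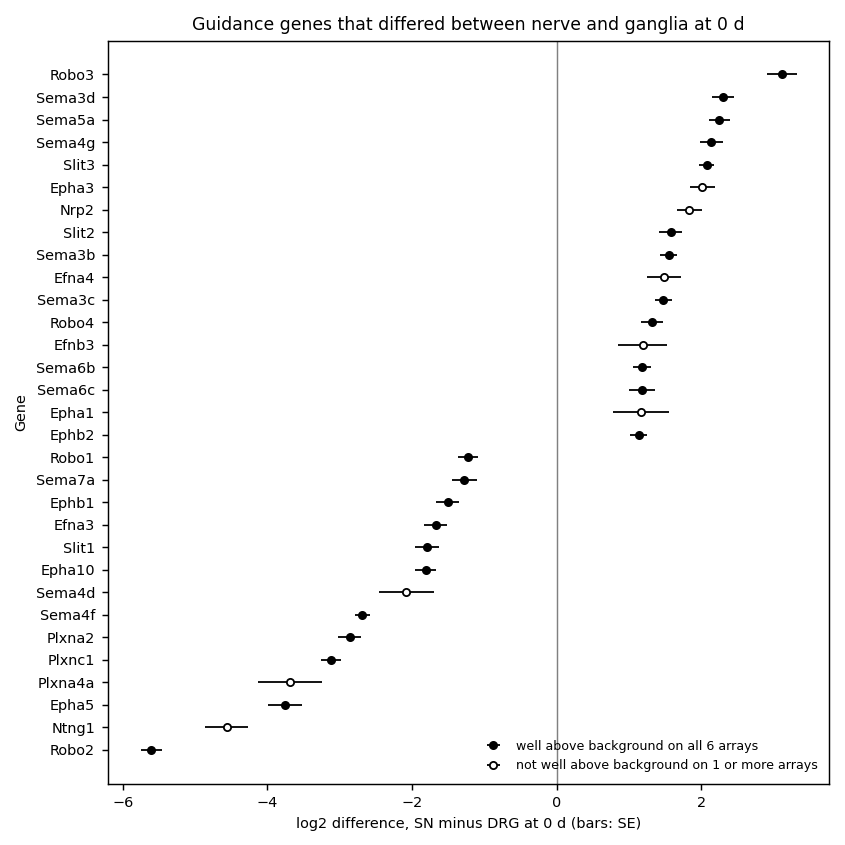
Log2 difference in normalized signal between SN and DRG at 0 d for the 31 members called in this comparison, with bars for the standard error of the limma fit; filled points were well above background on all 6 arrays and open points were not. Robo2 lay lowest at −5.60 and Robo3 highest at 3.12.

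Following transection the nerve changed in both directions. In SN 27 of the 60 members were called at 1 or more days, 14 upregulated and 13 downregulated, and no member was upregulated on one day and downregulated on another. The share of all gene names called at 1 or more days was not counted, so only the counts by day have a share beside them. On day 1 limma called 5 members higher and 4 lower, beside 23.1% of all the 29950 gene names tested (19.5% higher and 3.57% lower). On day 4 there were 7 higher and 11 lower, beside 23.3% of all (16.5% and 6.74%). On day 7 there were 13 higher and 8 lower, beside 25.7% of all (18.8% and 6.88%), and on day 14 there were 10 and 7, beside 20.4% (15% and 5.41%). The share of members that fell was thus above that of all genes at the 4 days, whereas the share that rose was below it at 1 and 4 d and close to it at 7 and 14 d. The median log2 change of the members was −0.08, 0.15, 0.47 and 0.28, and that of all gene names 0.12, 0.16, 0.15 and 0.18. In the authors' quantile-normalized matrix the medians of all gene names ran from −0.08 to 0.04, and the members split into 2 higher and 7 lower at 1 d and 4 higher and 11 lower at 4 d. Of all 29950 gene names 3855 were higher and 2195 lower there at 1 d, and 3387 and 2480 at 4 d. After normexp and quantile normalization the split was 0 and 2 at 1 d and 4 and 5 at 14 d. All gene names then split into 1426 and 605 at 1 d and 944 and 1021 at 14 d. By role, at 14 d 8 of 28 receptors were higher and 2 lower, beside 2 of 31 ligands higher and 5 lower. At 7 d the numbers were 8 and 2 for receptors and 5 and 6 for ligands. At 4 d they were 4 and 4 for receptors and 3 and 7 for ligands, and at 1 d 3 and 2 for receptors and 2 and 2 for ligands. This division was made after the values were seen and was not tested. Plxna4a and Epha1, counted among the receptors that rose, and Ntng1 and Sema4d, among the ligands, were tested in SN only through days after 0 d. With only probes well above background in both groups, the members split into 3 higher and 4 lower at 1 d and 4 and 11 at 4 d. At 7 d the split was 9 and 8 and at 14 d 8 and 6, and shares of all gene names are not given for this filter. The 4 comparisons share the 3 arrays of 0 d.

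**Figure D2:**
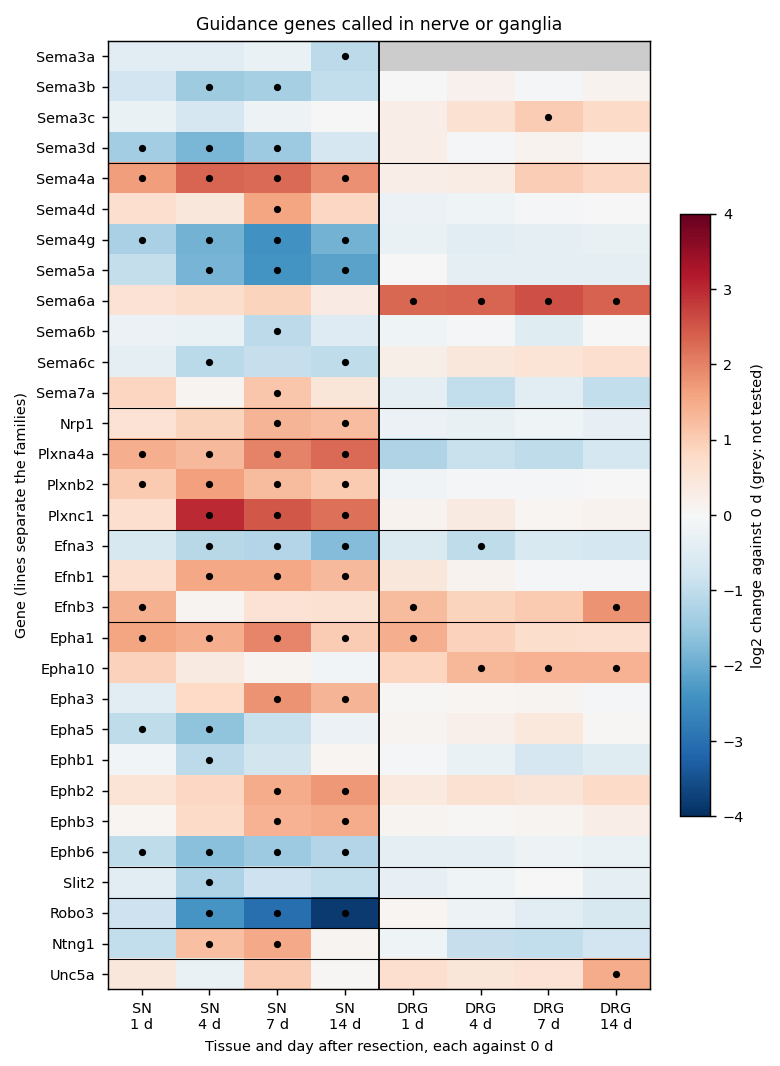
Log2 change against 0 d (colour, red higher and blue lower) for the 31 members called in SN or DRG, with a column for each tissue and day, lines between the families, and grey where a gene was not tested; a dot marks an adjusted p under 0.05 in limma with a fold over 2. The dots in SN lie on 14 genes that rose and 13 that fell, and those in DRG on 7 genes.

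The semaphorins were the largest family and moved both ways in the nerve. Sema4a, a membrane-bound semaphorin known from immune cells, had normalized signals of −4.41, −4.51 and −4.94 on day 0, −2.94, −3.12 and −2.79 on day 1, −2.41, −2.27 and −2.20 on day 4, −2.36, −2.35 and −2.30 on day 7, and −2.64, −3.16 and −2.60 on day 14. Every later array was above the 0 d arrays. Sema4a rose by 1.67, 2.32, 2.28 and 1.82 on the log2 scale (SE 0.16, adjusted p from 5.56e-06 to 2.99e-07). Sema7a, the membrane-anchored ligand of Plxnc1, rose at 7 d by 1.1 and was not called at 1, 4 and 14 d (0.87, 0.11 and 0.48). Sema4d, the ligand of Plxnb1, was called at 7 d (1.57), a call lost without SN 0 d replicate 2 or 3 (1.11 and 1.26). Only 1 of its 3 arrays at 0 d was well above background, and it, at −5.31, lay within the range of the 7 d arrays (−5.39 to −5.03). Plxnb1 was not called at any day (−0.42, −0.86, −0.93 and −0.43).

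Most of the semaphorins that changed in nerve fell. Sema5a, a membrane-bound semaphorin with thrombospondin repeats, had signals of 3.08, 3.33 and 3.54 on day 0, 2.34, 2.52 and 2.21 on day 1, 1.69, 1.36 and 1.36 on day 4, 1.03, 0.76 and 1.01 on day 7, and 1.07, 1.42 and 1.02 on day 14. All later arrays lay below 0 d, and the fall was called at 4, 7 and 14 d (−1.85, −2.38 and −2.14, SE 0.15). Of the 6 probes of Sema5a, 5 fell on these days and 1 did not (−0.04, −0.02 and 0.00). Sema4g, also membrane-bound, went from 2.58, 2.96 and 2.97 at 0 d to 0.55, 0.26 and 0.41 at 7 d, with changes of −1.28, −1.89, −2.43 and −1.88 at the 4 days and no overlap between 0 d and any later day. A second, dimmer probe of Sema4g was called in the opposite direction at 1 d (1.68) and was not called at 4, 7 and 14 d (0.39, −0.98 and 0.18), so the direction of Sema4g rests on its brighter probe.

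Class 3 semaphorins, the secreted repellents, had no member that rose in SN. Sema3d went from −0.47, −0.57 and −0.90 on day 0 to −1.91, −2.13 and −2.11 on day 1 and to −2.16, −2.67 and −2.57 on day 4, and at 14 d was at −1.51, −1.21 and −1.25. It was downregulated at 1, 4 and 7 d (−1.41, −1.82 and −1.45, SE 0.16), its second probe at 1 and 4 d (−1.07 and −1.71) but not at 7 d (−0.94), and it was not called at 14 d (−0.68), where its arrays still lay below those of 0 d. Sema3b fell at 4 and 7 d (−1.41 and −1.32, SE 0.13). Sema3a, the best-known repellent of sensory axons, was dim and was called only at 14 d (−1.06, SE 0.29, adjusted p = 0.0076), a call that was lost without SN 14 d replicate 3 (−0.70), SN 0 d replicate 1 (−0.95) or SN 0 d replicate 2 (−0.92). Sema3c and Sema3f were not called in SN at any day, with changes between −0.66 and 0.48. Of the class 6 semaphorins, which bind A-type plexins, Sema6c was called lower at 4 and 14 d (−1.06 and −1.0) and Sema6b at 7 d (−1.03), all of them close to the threshold of 2-fold.

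Among the receptors of the semaphorins every called change in SN was a rise, in Plxnc1, Plxnb2, Nrp1 and Plxna4a. Plxna4a was tested only through days after 0 d, and among all gene names too more were called higher than lower on each day. Plxnc1, the receptor of Sema7a (chromosome 7 from 31986294 to 31986353 for the probe, build rn4), had signals of −1.36, −1.21 and −1.70 on day 0, −0.73, −0.79 and −0.73 on day 1, 1.48, 1.58 and 1.64 on day 4, 1.22, 1.12 and 0.86 on day 7, and 0.77, 0.55 and 0.99 on day 14. The arrays of 0 d and 1 d lay below all others, and the 4 d arrays were the highest. Plxnc1 rose by 2.99, 2.49 and 2.19 at 4, 7 and 14 d (SE 0.14, adjusted p = 2.01e-08, 7.18e-08 and 2.72e-07), and its second probe by 3.13, 2.64 and 2.26. Plxnb2, a receptor of class 4 semaphorins, went from −0.28, −0.59 and −0.61 at 0 d to 0.97, 1.22 and 1.28 at 4 d, with changes of 1.05, 1.65, 1.26 and 1.03 and no overlap with 0 d on any day. Sema4c, one of its ligands, was not called (0.38, 0.07, 0.31 and 0.49).

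Nrp1, which binds class 3 semaphorins and also vascular endothelial growth factor, had signals of −1.55, −1.41 and −1.76 at 0 d and −0.30, −0.11 and −0.24 at 7 d. It was upregulated at 7 and 14 d (1.35 and 1.23, SE 0.14), and its arrays at 1 and 4 d (changes of 0.59 and 0.89, not called) also lay above those of 0 d. Nrp2 was not called against 0 d (−0.85, −0.21, −0.28 and 0.50). Plxna4a, which acts with neuropilins and also binds class 6 semaphorins directly, was called higher at all 4 days (1.45, 1.31, 1.99 and 2.25), but all of its SN arrays of 0 d were at background. Against that background it was at least 1.09-fold higher at 7 d and 1.31-fold at 14 d, and at 1 d its change was −0.05 after normexp correction with quantile normalization. The other A-type plexins tested, Plxna2 and Plxna3, changed by −0.57 to 0.09 and were not called, while a second probe of Plxna2 was called higher at 1 d (1.17) and not later (0.53, 0.66 and 0.58).

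In the ephrin and Eph families 4 receptors rose in the nerve, Ephb2, Ephb3, Epha3 and Epha1. Efnb1, a transmembrane ligand of EphB receptors, had signals of −0.98, −0.39 and −0.41 on day 0, 1.09, 1.1 and 0.70 on day 4, 0.92, 1.14 and 0.79 on day 7, and 0.55, 0.59 and 0.99 on day 14. Its changes of 1.55, 1.54 and 1.30 (SE 0.18) were called, and the groups did not overlap. Ephb2, its receptor, was at −2.62, −3.01 and −3.03 on day 0, −2.39, −2.33 and −2.33 on day 1, −2.19, −1.88 and −2.10 on day 4, −1.38, −1.42 and −1.37 on day 7, and −1.1, −1.22 and −1.17 on day 14. It was called at 7 and 14 d (1.5 and 1.72, SE 0.11, adjusted p = 3.95e-07 and 2.52e-07), and its 2 other probes were called at 4, 7 and 14 d. Ephb3, another ephrin-B receptor, rose on the same days (1.39 and 1.48), whereas Ephb1 fell at 4 d (−1.06, with −0.84 and no call for its second probe) and Epha4, which binds both ephrin classes, was not called with its brightest probe (−0.48, 0.00, 0.46 and 0.40). Of the other probes of Epha4, A_44_P464812 was called higher at 7 d (1.02, adjusted p = 0.011 in limma) and A_43_P21063 did not reach 2-fold (0.88).

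On the ephrin-A side Epha3 rose and Efna3 and Epha5 fell. Epha3 went from −3.88, −3.38 and −3.52 at 0 d to −2.11, −1.78 and −1.56 at 7 d, a change of 1.78 (SE 0.17), and was 1.37 higher at 14 d. Epha1 was called at all 4 days (1.56, 1.46, 1.95 and 1.02), with only 1 of 3 arrays well above background at 0 d, and the call at 14 d was lost without SN 0 d replicate 3 (0.58) or 14 d replicate 1 (0.88). Efna3, a membrane-anchored ephrin, was at −2.78, −3.34 and −2.96 at 0 d and −4.74, −4.57 and −4.98 at 14 d, and fell by 1.11, 1.16 and 1.74 at 4, 7 and 14 d (SE 0.17). Its second probe rose at 1, 7 and 14 d (1.09, 1.07 and 1.06), so the direction of Efna3 in SN was not settled by the array. Ephb6, a receptor without kinase activity, went from 1.73, 1.80 and 2.08 at 0 d to 0.44, 0.06 and 0.10 at 4 d and was downregulated at all 4 days (−1.01, −1.67, −1.45 and −1.18), while its second probe was not called (−0.05, −0.95, −0.24 and −0.51). Epha5 was downregulated at 1 and 4 d (−1.01 and −1.60), and with its second probe at 4 d (−1.51) but not at 1 d (−0.99). Efnb3 rose at 1 d (1.44, SE 0.27) and was not called later (0.12, 0.59 and 0.60), and in the authors' matrix its change at 1 d was 0.75 and was not called.

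The largest change of any member in SN was the fall of Robo3 (probe on chromosome 8 from 38669561 to 38669620, build rn4). Its normalized signals were 0.40, 1.13 and 0.91 on day 0, −0.15, 0.05 and 0.04 on day 1, −1.41, −1.64 and −1.56 on day 4, −2.09, −2.33 and −2.22 on day 7, and −3.18, −2.81 and −3.10 on day 14. No array of a time point overlapped with those of the time point before it. The log2 change was −0.83 at 1 d, which did not reach 2-fold, and −2.35, −3.03 and −3.84 at 4, 7 and 14 d (SE 0.16, adjusted p = 2.97e-07, 5.75e-08 and 2.4e-08). A second probe of Robo3 was dim, was called higher at 1 d (2.01) and was not called afterwards (1.1, 0.46 and −0.05), so the fall rests on the brighter probe. Robo4, whose probe lies on the same chromosome from 38664659 to 38664718, was not called (0.44, 0.23, 0.31 and 0.22).

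The other Slits and Robos changed less. Slit2, a secreted ligand of Robo1 and Robo2, went from 4.49, 4.61 and 4.78 at 0 d to 3.59, 3.34 and 3.26 at 4 d and was called there (−1.23, SE 0.14), with no overlap between those arrays, but not on days 7 and 14 (−0.83 and −0.99). A second probe of Slit2 was called lower on days 4, 7 and 14 (−1.29, −1.34 and −1.32). Slit1 and Slit3 changed by −0.48 to 0.65 and were not called. Robo1 was not called (−0.22, 0.62, 0.56 and 0.26), and Robo2 lay below 0 d at 1 d (−0.84) and above it afterwards (0.75, 0.82 and 1.00) without passing the 2-fold threshold. In the netrin group the 1 called gene of SN was Ntng1, at −8.36, −7.85 and −7.61 on day 0, −6.45, −6.76 and −7.01 on day 4 and −6.61, −6.10 and −6.54 on day 7. This probe was above background at 4 and 7 d and not at 0, 1 or 14 d, so that it was tested in SN only through the days on which it was high, and neither a fold nor a p-value is given. A second probe of Ntng1 was called higher at 7 and 14 d (fitted changes of 2.43 and 2.23) and not at 1 and 4 d (−0.44 and 0.88), so the probes did not give the same days. Unc5b, a repulsive netrin receptor, did not reach 2-fold in SN (0.21, 0.46, 0.99 and 0.61), and neither did Unc5c (−0.68, −0.47, −0.71 and −0.68).

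Markers of other cells moved with these changes in the nerve. Of 6 macrophage markers, 5, 6, 4 and 3 were upregulated in SN at 1, 4, 7 and 14 d, and their summed level went from 4.69–4.80 at 0 d to 6.67–6.98 at 4 d. Of 6 repair Schwann cell markers 2, 4, 4 and 4 rose and 1 fell at each day, and of 5 myelinating Schwann cell markers 2, 5, 5 and 3 fell, with a summed level of 8.97–9.25 at 0 d and 7.48–7.71 at 7 d. None of the 6 fibroblast markers was called, and 1 of the 6 endothelial markers was lower at 1 d. Of the 4 satellite glia markers 2, 2, 2 and 1 were higher. Skeletal muscle markers were uneven between samples: their summed level was 6.62–10.37 at 0 d, 2.70–4.52 at 4 d and 6.14–7.88 at 14 d, and 6 of 6 were lower at 4 and 7 d but none at 1 and 14 d. Their median change was −0.57, −4.73, −3.30 and −0.86. Of the 4 adipocyte markers tested 0, 3, 2 and 3 were lower. Of the 8 sensory neuron markers 2, 1, 1 and 2 were higher and 1, 3, 2 and 2 lower, and their summed level was 1.75–2.01 at 0 d and 0.77–0.87 at 4 d. The part of these cells in the changes of the members was not tested.

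**Figure D3:**
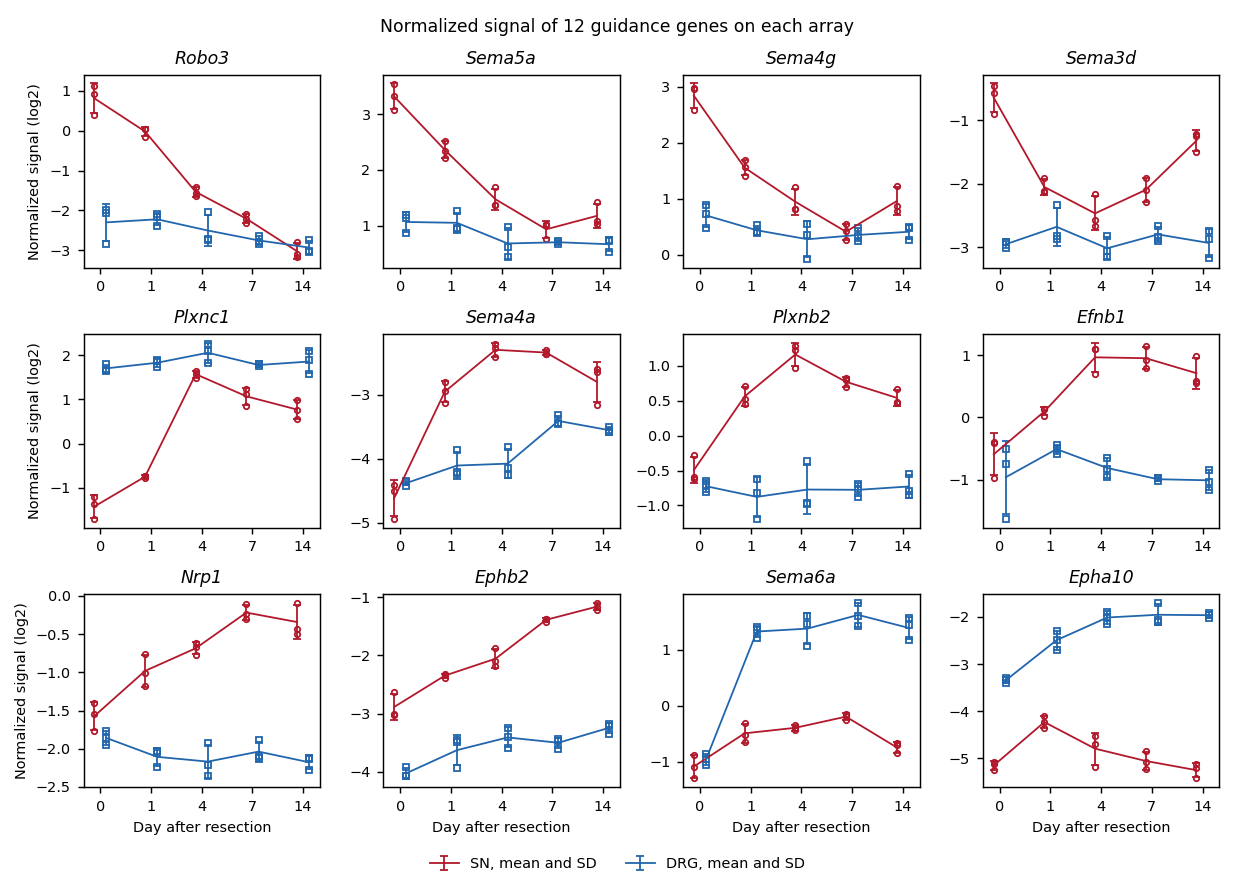
Normalized signal (log2, 0 equals the 75th percentile of the array) of 12 members on each array of SN (red circles) and DRG (blue squares) at 0, 1, 4, 7 and 14 d, drawn at equal spacing, with lines through the means and bars for the SD of 3 arrays; the vertical scale differs between panels. Robo3, Sema5a, Sema4g and Sema3d fall in SN, the next 6 genes rise there, and Sema6a and Epha10 rise in DRG.

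In the ganglia few members were called. Of the 62 tested, 3 were higher and none lower on day 1, beside 8.12% of all the 29733 gene names (7.94% higher and 0.175% lower). Day 4 had 2 higher and 1 lower, beside 7.06% of all (6.57% and 0.494%), and day 7 had 3 higher and none lower, beside 7.36% (7.04% and 0.316%). Day 14 had 4 higher and none lower, beside 14.5% (14.0% and 0.437%). In the authors' matrix the splits were 2 and 1, 3 and 4, 3 and 1, and 3 and 3, with 7 called at 4 d. Those of the 29733 gene names were 1465 and 202, 1101 and 324, 1328 and 278, and 2267 and 706. In the normalization by the 75th percentile the share of members called was below that of all genes on each day. In the authors' matrix it was above it at 4 d (11.3% of members and 4.79% of all) and 7 d (6.45% and 5.4%). In that matrix it was below it at 1 d (4.84% and 5.61%) and just below it at 14 d. With no threshold on size, 9, 16, 17 and 24 of the 62 members had an adjusted p under 0.05 in limma at 1, 4, 7 and 14 d. The share of all gene names at that threshold was not counted. The median change of the members was 0.04, −0.05, −0.05 and 0.01, and that of all gene names 0.10, 0.16, 0.09 and 0.16. The 8 sensory neuron markers were not called at any day, with median changes of −0.22, −0.46, −0.45 and −0.55. Macrophage markers were higher in DRG for 0, 1, 3 and 1 of 6 (summed level 2.91–3.55 at 0 d and 4.38–4.55 at 7 d) and repair Schwann cell markers for 0, 3, 2 and 3 of 6, and their part in the changes was not tested.

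Sema6a, a membrane-bound ligand of Plxna2 and Plxna4, was the member with the largest change in DRG. Its signals were −1.06, −0.86 and −0.95 on day 0, 1.36, 1.21 and 1.41 on day 1, 1.47, 1.06 and 1.60 on day 4, 1.84, 1.61 and 1.42 on day 7, and 1.17, 1.56 and 1.44 on day 14. Every later array was above the 0 d arrays by more than the spread within either group. The rise was called at 1 d and at each later day, with changes of 2.28, 2.34, 2.58 and 2.35 (SE 0.15, adjusted p = 1.77e-06, 8.22e-07, 3.14e-07 and 8.28e-07). A second probe of Sema6a rose by 1.39, 1.47, 1.60 and 1.25. Its receptors were not called in DRG, where Plxna2 changed by 0.19, −0.48, −0.24 and −0.13 and Plxna4a by −1.20, −0.88, −1.02 and −0.71.

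Epha10, an Eph receptor without kinase activity, was at −3.29, −3.33 and −3.41 on day 0, −2.29, −2.69 and −2.49 on day 1, −1.99, −2.16 and −1.89 on day 4, −1.70, −2.11 and −2.06 on day 7, and −1.95, −1.91 and −2.03 on day 14. All later arrays lay above 0 d, and the change was called at 4, 7 and 14 d (1.33, 1.39 and 1.38, SE 0.13). Its promoter is the one that holds the AP-1 letters shown above. Sema3c, a secreted semaphorin, went from −2.97, −2.77 and −2.77 at 0 d to −1.97, −1.69 and −1.78 at 7 d and was called on that day (1.02, SE 0.11). Efna3 was called lower at 4 d (−1.0) with its brighter probe, while the other probe was not called (−0.03). Efnb3, a ligand of EphB receptors, was not well above background on any DRG array of 0 d and was at least 1.56-fold higher at 14 d. Efnb3 was thus tested in DRG only through later days, and no p-value is given. Its call at 1 d was lost when any single array of 0 d, or 1 d replicate 1 or 2, was left out. Epha1, also dim on every array of 0 d, was likewise tested only through later days. It was called at 1 d, a call that was lost without 0 d replicate 1 or any array of 1 d. Unc5a, a netrin receptor with 1 of 3 arrays above background at 0 d, was also tested only through later days. It was called at 14 d (fitted change of 1.49). With other probes only, 3 further genes were called in DRG. Sema5a was called higher at 1 and 14 d with 1 of its 6 probes (1.27 and 1.22), the one that did not fall in SN. Its brightest probe gave −0.02 and −0.40, and no other was called. Sema4g was called at 1 d with its dimmer probe (1.89), beside −0.27 for the brighter. Ephb2 was called at 14 d with 1 of its 3 probes (1.34), beside 0.78 for the brightest.

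Whether the changes differed between nerve and ganglia was tested by the interaction in a limma fit on all 30 arrays. Members with a different change were called at an adjusted p under 0.05 and no threshold on size. Day 1 had 23 of 58, beside 35.8% of all gene names, of which 8 had the higher change in SN and 15 in DRG (15.5% and 20.3% of all). Day 4 had 34 (45.3% of all), with 16 higher in SN and 18 in DRG (19.3% and 26.0%), and day 7 had 38 (37.7%), with 21 and 17 (17.1% and 20.7%). Day 14 had 28 (32.2%), with 13 and 15 (12.3% and 19.9%). After normexp and quantile normalization the split was 17 and 11, beside 4544 and 4282 of 28721 gene names. Robo3 differed by −3.21 at 14 d (SE 0.29, adjusted p = 1.91e-08). In DRG its signals were −1.99, −2.08 and −2.84 at 0 d and −2.74, −3.04 and −3.03 at 14 d, so that the 14 d arrays of nerve and ganglia overlapped. Plxnc1 differed by 2.64 at 4 d (SE 0.20). Its DRG arrays lay between 1.57 and 2.26 at all time points, above every SN array of 0, 1, 7 and 14 d, while the 4 d arrays of SN, at 1.48 to 1.64, overlapped with them. Sema4g and Sema5a differed by −2.08 and −2.02 at 7 d. Sema6a differed in the other sense, by −1.69, −1.64, −1.69 and −2.01 at the 4 days, since it rose in DRG and was not called in SN (0.59, 0.69, 0.89 and 0.34).

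Further members differed between the tissues without being called in DRG. Nrp1 differed by 1.53 at 7 d, from a rise in SN and a change of −0.18 in DRG, and Unc5b by 1.37, 1.35 and 1.21 at 4, 7 and 14 d, where it was higher than 0 d in SN and lower in DRG and called in neither. Sema7a differed by 1.27, 1.11, 1.55 and 1.45 at the 4 days. Ntng1 differed by 2.52 at 7 d, with a level below background in SN at 0 d. Plxna4a differed by 3.0 at 7 d (SE 0.62), a value that depends on its 0 d arrays in DRG, which were at −5.79, −5.22 and −2.75. Without replicate 3, the array at −2.75, the difference was 2.08, and with the slide as a block it was 1.79 and was not called (adjusted p = 0.0874). The slide block could be fitted since 7 of the 8 slides held arrays of both tissues, and it left 11, 24, 24 and 23 members called, of which 10, 23, 24 and 22 were also called without it. Under this block 15.7%, 30%, 24.6% and 18.5% of all gene names were called. The members divided into 5 higher and 6 lower in SN, 8 and 16, 14 and 10, and 13 and 10. Shares of all gene names by direction are not given for this block.

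**Figure D4:**
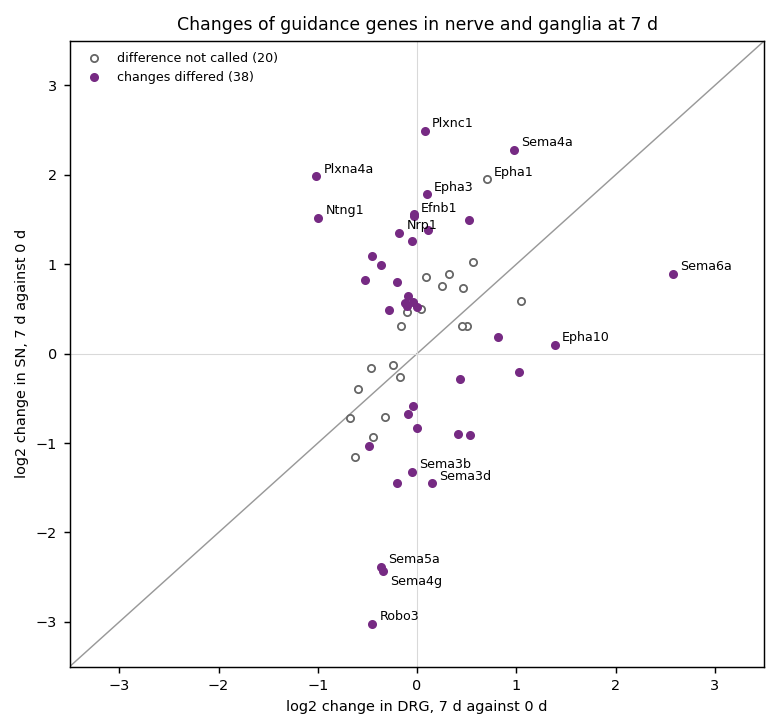
Log2 change at 7 d against 0 d in DRG (horizontal) and SN (vertical) for the 58 members tested in both tissues, with filled points for the 38 whose changes differed at an adjusted p under 0.05 and a line of equal change. Robo3, Sema4g and Sema5a lie far below the line, Plxnc1, Plxna4a and Ntng1 far above it, and Sema6a and Epha10 to its right.

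From 1 d to 14 d 9 members were higher and 4 lower in SN, beside 14.1% of all gene names (5.05% higher and 9.02% lower). The 0 d arrays do not enter the size of these changes, but they do enter the estimate of the spread. Robo2 went from −3.73, −3.80 and −4.08 to −1.71, −2.45 and −1.93 (1.84, SE 0.17, adjusted p = 5.01e-06) and Nrp2, the second neuropilin, rose by 1.34. Epha3, Plxnc1, Ephb3 and Ephb2 rose by 1.80, 1.52, 1.40 and 1.18, Plxnb3 by 1.22 and Efna4 by 1.05. Robo3, Sema5a, Efna3 and Epha10 fell by 3.01, 1.18, 1.11 and 1.02. The second probe of Efna3 was above 0 d by 1.09 at 1 d and by 1.06 at 14 d, so the fall of Efna3 rests on its brighter probe. Ntng1 was also called, but the probe counted for it was not above background on day 1 or day 14 and no value is given. Of these 13 members Robo2, Nrp2, Plxnb3, Efna4 and Epha10 were called in no SN comparison with 0 d. The SN arrays of 1 d and 14 d lay on different slides and were scanned on different days, so that time and slide cannot be told apart here either. In DRG no member was called between 1 d and 14 d in limma (5.66% of all gene names were called, 4.56% higher and 1.1% lower). Of the 62 members 12 had an adjusted p under 0.05 and 23 an unadjusted p under 0.05. The shares of all gene names at these thresholds were not counted. None of the 62 members reached 2-fold (changes from −0.78 to 0.82). The methods' t-test called none either.

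Genes outside the families that carry or share their signals were followed as a list of 61, of which 55 were on the array and tested. In SN 4, 5, 5 and 4 of them were higher and 2, 5, 3 and 6 lower at 1, 4, 7 and 14 d, and in DRG 1, 2, 1 and 1 were higher and none lower. These were 10.9%, 18.2%, 14.5% and 18.2% in SN, below the 23.1%, 23.3%, 25.7% and 20.4% of all gene names, and 1.82%, 3.64%, 1.82% and 1.82% in DRG, below the 8.12%, 7.06%, 7.36% and 14.5% of all. Pak1, a kinase activated by Rac, rose in SN by 1.72, 1.73 and 1.32 at 4, 7 and 14 d, and Evl, an actin regulator of the Ena/VASP family, by 1.49, 1.58 and 1.34. Cxcr4, the chemokine receptor of Cxcl12, rose at all 4 days (1.00, 2.09, 1.51 and 1.16). The chimaerins Chn1 and Chn2, Rac inhibitors that act below Eph receptors, fell (Chn1 −1.24, −1.97 and −2.32, Chn2 −1.48, −1.81 and −1.67), as did Ngef, an ephexin that acts below EphA receptors (−1.41, −1.32 and −1.03). In DRG Flrt3, a membrane protein that binds Unc5 receptors and latrophilins, rose by 3.38, 3.03, 2.94 and 2.64, and Rnd1, which binds plexins, by 1.13 at 4 d.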

How the data were processed

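RNA of 15 SN and 15 DRG samples was hybridised to 30 one-colour Agilent rat arrays. The deposited scanner files give the processed intensity of each spot after background correction by Feature Extraction, and the authors' value table holds log2 values that were found to be quantile-normalized over the 30 arrays. The study's methods name GeneSpring normalization and t tests against 0 h.

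The processed intensity was converted to log2 and each array's 75th percentile over non-control probes was subtracted. Outlier spots were dropped, and spots of a probe were averaged (263 probes). A probe was tested in a tissue if the software marked it well above background throughout some time point there. Differences were fitted with limma 3.58.1 in R 4.3.3 over all probes tested and adjusted by Benjamini-Hochberg, and called at an adjusted p under 0.05 and a fold over 2. The brightest probe over 30 arrays stood for a gene. A probe above background on no array of a group has only a bound ("at least N-fold"), taken against the lowest signal well above background. The fits were tested on simulated data. Member genes, gene lists, marker lists and tests were chosen with earlier results of these data known. Genes named were, per tissue, the 14 with the largest called change whose arrays did not overlap with 0 d, their textbook partners, the 6 largest interactions, and the 6 highest and lowest between tissues; others were named after their values were seen. Alternatives were normexp with quantile normalization, the authors' matrix, a stricter filter, the slide as a block, all probes, the replicate block, the methods' t-test and leaving out arrays. Precision is limited by having 3 arrays a group.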

Additional observations from a re-analysis of the deposited data

Results flagged for a closer look

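The change from 0 d differed between SN and DRG for 23 of 58 members on day 1, 34 on day 4, 38 on day 7 and 28 on day 14 by the interaction term in limma, beside 35.8%, 45.3%, 37.7% and 32.2% of all gene names. The 6 largest differences of log2 change were those of Robo3 at 14 d (−3.21), Plxna4a at 7 d (3.0), Plxnc1 at 4 d (2.64), Ntng1 at 7 d (2.52), Sema4g at 7 d (−2.08) and Sema5a at 7 d (−2.02), each taken as SN minus DRG. In SN at 0 d the probes of Plxna4a and Ntng1 were not well above background on any of the 3 arrays, so that neither value is a measured size, and Plxna4a was not called with the slide as a block (1.79, adjusted p = 0.0874).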

How the results depend on the processing

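With normexp and quantile normalization 2, 13 and 9 members were called in SN at 1, 7 and 14 d, 1 at each day in DRG, 8 in SN from 1 to 14 d and 20 between the tissues, and the splits into higher and lower were 0 and 2 in SN at 1 d, 4 and 5 in SN at 14 d, and 17 and 11 for the interaction at 14 d. Plxna4a in SN at 1 d turned to −0.04965 (adjusted p = 0.493). With the authors' matrix 7 members were called in DRG at 4 d (3 higher, 4 lower), and the splits were 2 and 1, 3 and 1, and 3 and 3 in DRG at 1, 7 and 14 d. Counting all member probes gave 14, 28, 32 and 27 calls in SN, 6, 5 and 7 in DRG at 1, 7 and 14 d, 22 and 1 from 1 to 14 d in SN and DRG, 47 between the tissues, and 52 and 43 for the interaction at 4 and 14 d. The stricter filter, above background in both groups, left 1 and 2 in DRG at 1 and 14 d, and the methods' t-test 1 in DRG at 1 d with and without adjustment. Without the 2 DRG arrays of the separate 0 d slide, an alternative chosen after seeing the data like the fixed slide block, 6 members were called in DRG at 4 d. The fixed slide block left 11 and 24 interactions at 1 and 7 d. The causes of these moves were not tested, apart from the number of probes counted or tested.

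Leaving out each array in turn, or both DRG arrays of the separate 0 d slide, gave 6 to 14, 17 to 18, 20 to 23 and 14 to 19 calls in SN at 1, 4, 7 and 14 d, and 1 to 4, 3 to 6, 2 to 4 and 4 to 5 in DRG. It gave 10 to 15 and 0 to 1 from 1 to 14 d in SN and DRG, 30 to 32 between the tissues, and 19 to 25, 27 to 34, 32 to 42 and 23 to 31 interactions. The count in SN at 1 d was 14 without SN 0 d replicate 1, those in DRG were 1 at 1 d without 1 d replicate 1 or 2, and 5 and 6 at 4 d without 0 d replicate 3 or 4 d replicate 1, and from 1 to 14 d 1 was called without 14 d replicate 2 or 1 d replicate 1. Calls close to 2-fold were lost for Plxnb2 at 1 d without SN 0 d replicate 3 (0.99) or 1 d replicate 1 (0.98) and at 14 d without 0 d replicate 2 (0.99) or 3 (0.97) or 14 d replicate 1 (0.97), for Ephb1 at 4 d without 0 d replicate 2 (−0.98) or 4 d replicate 3 (−0.97), for Sema3c in DRG at 7 d without 0 d replicate 1 or 7 d replicate 2 (0.96 each), for Ephb6 at 1 d without 0 d replicate 3 or 1 d replicate 1 or 3 (−1.0 to −0.90), for Epha5 at 1 d without 0 d replicate 2 or 3 or 1 d replicate 2 (−0.97 to −0.92), for Sema6c at 4 d without 0 d replicate 3 or 4 d replicate 1 (−0.91 each) and at 14 d without 0 d replicate 3 or 14 d replicate 1 or 2 (−0.99 to −0.85), for Sema6b at 7 d without 0 d replicate 2 (−0.87) or 7 d replicate 3 (−0.99), and for Efna3 at 4 d without 0 d replicate 1 (−0.98) and in DRG at 4 d without 0 d replicate 1 or 4 d replicate 2 or 3 (−0.96 to −0.88).

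With the brightest probe of each gene, called under every alternative run were Robo3, Sema5a, Sema4g, Plxnc1, Efnb1 and Ephb6 in SN at 4, 7 and 14 d (Sema4g also at 1 d), Sema3d at 1, 4 and 7 d, and Sema6a in DRG at all 4 days. This does not hold for the second probes of Sema4g, Robo3 and Ephb6 and for that of Sema3d at 7 d, nor for 1 of the 6 probes of Sema5a. Replicate numbers did not pair the samples (correlations of −0.27 to 0.22 in SN and −0.36 to 0.33 in DRG), and with the replicate block 22 members in place of 21 were called in SN at 7 d and no other count changed. The methods' t-test was not run for the interactions.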
